A study of Rattus norvegicus with 21 samples.

Results

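Of 32883 listed rat gene IDs, 20705 of which had a count in both tissues, 64 met a rule for a higher level after neomycin than after buffer in both sorted spinal cord microglia and total spinal cord. They were chosen on those very values. CPM is a gene's count per 1000000 counts of its library, and the difference between treatments, d, is that of log2(CPM + 1) between 2 libraries with the same replicate number. A gene was kept where neomycin exceeded buffer in all 4 microglia pairs and all 3 cord pairs, with a mean d of at least 0.25 in each tissue. The rule left out 10 gene IDs by name, 7 of which met the rest of it and are not described here. With these IDs left out, 297 IDs were above 0 in all 7 pairs, and the limit on the mean reduced them to 64.

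The rats were wild type, of the LEW/Crl strain and 6 to 8 weeks old, and were treated intratracheally over 7 days with either antibiotic (NEO for neomycin, VANCO for vancomycin) or with PBS. The series asks what such antibiotics do to gene expression in the central nervous system. Total cord (3 libraries per treatment, numbered 1, 2 and 3) was homogenised cord freed of myelin on a Percoll gradient, and microglia (4 libraries per treatment, numbered 1, 2, 3 and 5) were CD45low CD11b+ cells sorted from such material. The labels do not say whether a library came from 1 animal or several, and the p-values given here reflect variation among libraries that may be technical.

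Microglia are the resident macrophages of brain and spinal cord, and they change their transcription when signals from the periphery or from microbes reach them. Neomycin is an aminoglycoside that acts on the bacterial ribosome, mainly of Gram-negative bacteria. Vancomycin is a glycopeptide that blocks cell wall synthesis of Gram-positive bacteria. Neomycin and vancomycin therefore leave different bacteria behind at the surface to which they are applied, and PBS is the solvent control.

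The deposited tables give Ensembl gene IDs only. Of the 32883 IDs, 0 matched the RefSeq gene table used here, whose Ensembl column was empty. Only the IDs of the 2 genes with the largest smaller-of-both-tissues mean d are printed, the other genes are given by their place in that order and by counts and ranges, and no role, marker list or sequence could be assigned. The microglia libraries held 9020480 to 22435887 counts, the cord libraries 16769410 to 25114844. The 64 genes together contributed 38289 to 175575 of these in microglia, and 24034 to 47246 in cord. NEO replicate 2 of the microglia stood apart. Cord-enriched genes, a set of 3528 with an adjusted p under 0.05 in the edgeR test of the vancomycin libraries and 8 or more times the microglia level there, made up 4.59% of its counts against 0.480 to 1.17% in the other 11 microglia libraries.

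The 2 genes with the largest mean d in the weaker tissue were ENSRNOG00000037198 and ENSRNOG00000033220. ENSRNOG00000037198 had 14.9, 4.88, 6.86 and 9.27 CPM in PBS microglia replicates 1, 2, 3 and 5. It had 21.7, 16.5, 16.4 and 19.6 CPM in the NEO replicates with those numbers, and 14.4, 7.64, 6.93 and 6.73 CPM in the VANCO replicates. All 4 NEO libraries lay above all 8 others, and the VANCO and PBS libraries overlapped, with replicate 1 the highest in each group.

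In cord the level of ENSRNOG00000037198 was 3.19, 2.30 and 2.44 CPM in PBS replicates 1, 2 and 3. The NEO replicates had 6.11, 5.79 and 5.22 CPM and the VANCO replicates 3.34, 2.69 and 2.37 CPM. The 3 NEO libraries again lay above all others, while VANCO and PBS covered the same range. The mean d for neomycin was 1.06 ± 0.44 (SD, n = 4 pairs) in microglia and 0.88 ± 0.14 (n = 3) in cord, and for vancomycin it was 0.03 ± 0.40 and 0.06 ± 0.10.

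ENSRNOG00000033220 had 11.3, 6.10, 15.2 and 6.69 CPM in PBS microglia, 20.1, 12.8, 34.9 and 22.9 CPM in NEO and 10.3, 6.66, 17.5 and 7.21 CPM in VANCO, in the order of the replicate numbers. The lowest NEO library, replicate 2, lay below the highest PBS and VANCO libraries, both replicate 3, so the groups overlapped although each NEO library exceeded the PBS and VANCO libraries of its own number. In cord ENSRNOG00000033220 had 3.42, 2.85 and 2.74 CPM in PBS, 4.67, 7.57 and 6.17 CPM in NEO and 3.73, 2.34 and 1.98 CPM in VANCO. There the NEO libraries did not overlap with the others. Its mean d for neomycin was 1.13 ± 0.37 (SD, n = 4 pairs) in microglia and 0.82 ± 0.41 (n = 3) in cord, and for vancomycin 0.07 ± 0.14 and -0.15 ± 0.22.

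**Figure D1:**
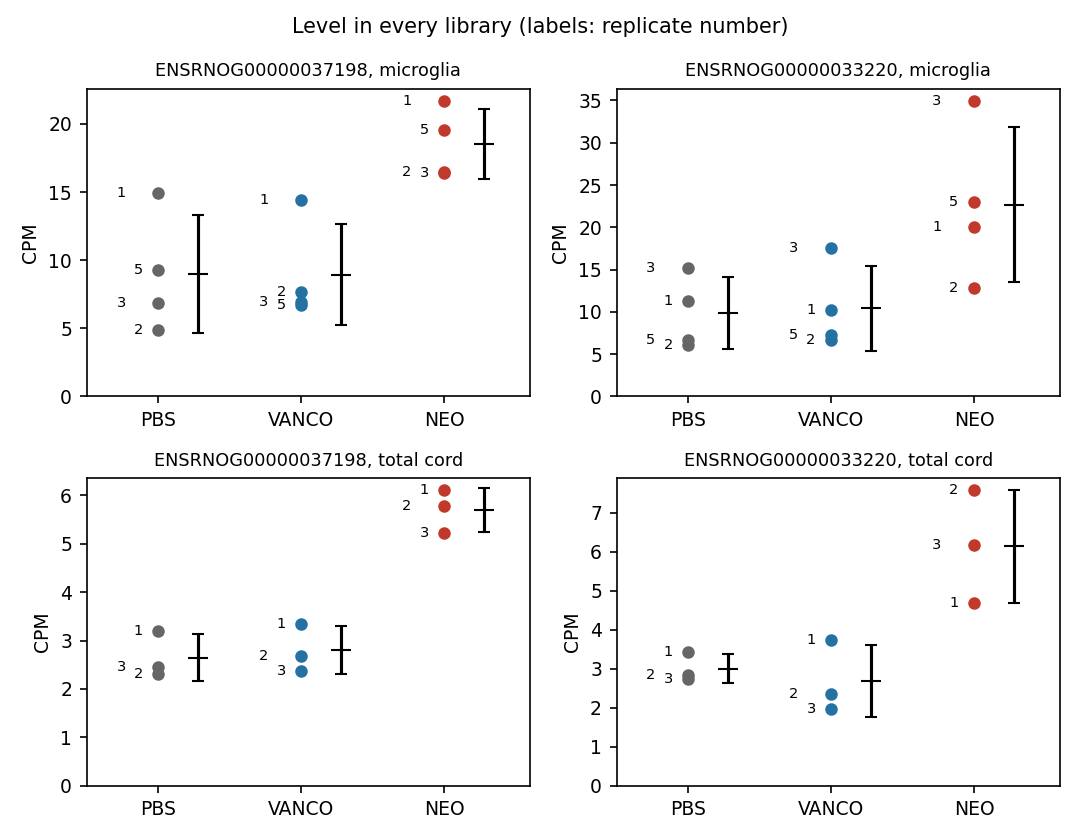
CPM of ENSRNOG00000037198 (left) and ENSRNOG00000033220 (right) in every microglia library (top) and cord library (bottom); points are libraries with their replicate numbers, and bars are the mean and SD (n = 4 in microglia, n = 3 in cord). The NEO libraries are above the VANCO and PBS libraries in 3 panels and overlap with them for ENSRNOG00000033220 in microglia.

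Over all 64 genes the mean neomycin d ran from 0.26 to 1.47 in microglia, with a median of 0.53. In cord it spanned 0.25 to 1.60, with a median of 0.40. These values describe what the rule selected and were not tested. Every NEO library lay above every PBS library for 29 genes in microglia (1.8% of IDs with at least 1 CPM) and for 39 in cord (2.43%), which the rule also shapes. The difference was larger in microglia for 46 genes and larger in cord for 18. It reached 0.5 in both tissues for 18 genes, and 1 in microglia for 12 genes but in cord for 2. The median PBS level of the 64 genes was 6.24 CPM in cord against 32.7 CPM in microglia. The pseudocount of 1 CPM therefore compresses d more in cord, which tilts these counts toward microglia. The 3 genes just inside the limit had a smaller mean d of 0.2503, 0.2513 and 0.2529, and the 3 just outside it had 0.2480, 0.2491 and 0.2499.

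**Figure D2:**
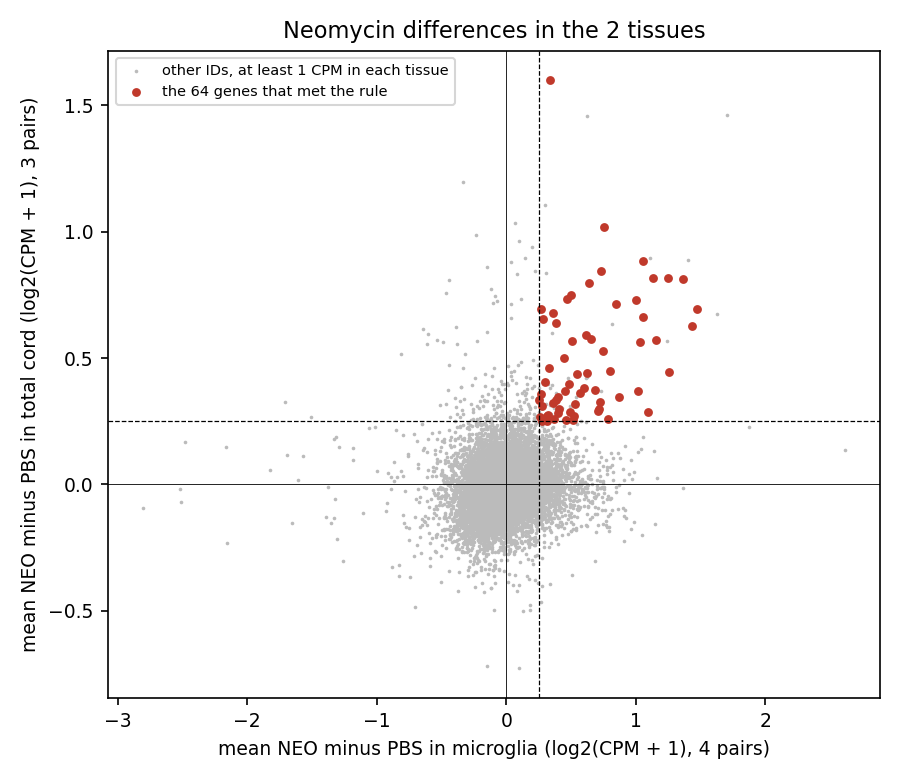
Mean NEO minus PBS difference in microglia (x axis, 4 pairs) and in total cord (y axis, 3 pairs), both as log2(CPM + 1). Red points are the 64 genes at any level, grey points the other IDs with at least 1 CPM in each tissue, and dashed lines the 0.25 limits. The red points fill the upper right corner by construction, with medians of 0.53 and 0.40, and grey points there are IDs that failed in a pair or were left out by the rule.

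The gene with the largest d in microglia, at place 9 of 64, had 82.9, 40.8, 83.6 and 54.0 CPM in PBS, 206, 117, 258 and 151 CPM in NEO and 92.4, 79.7, 168 and 54.7 CPM in VANCO. Its neomycin d was 1.47 ± 0.13 (SD, n = 4 pairs) and its vancomycin d 0.53 ± 0.52, with VANCO replicates 2 and 3 well above their PBS partners and replicates 1 and 5 close to them. The gene with the largest d in cord, at place 36, had 64.7, 47.8 and 35.1 CPM in PBS, 178, 181 and 98.0 CPM in NEO and 40.9, 98.4 and 46.2 CPM in VANCO. Its cord d was 1.60 ± 0.26 (n = 3) for neomycin and 0.26 ± 0.84 for vancomycin, and VANCO replicate 2 slightly exceeded NEO replicate 3. In microglia that gene differed far less, with a neomycin d of 0.34 ± 0.22 (n = 4) from a PBS level of 502 CPM.

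The parts of the rule can be read separately, because microglia and cord rest on separate libraries. Whether the libraries of the 2 tissues share animals is not given by the labels, so the lists may not be independent. With the left-out IDs included, the microglia part alone was met by 648 IDs and the cord part by 385, and 71 met both. These are 11% of the microglia list and 18.4% of the cord list. Among the 20705 IDs with a count in both tissues, 3.12% met the microglia part and 1.85% the cord part. The 11% is thus to be read beside 1.85%, and the 18.4% beside 3.12%. These IDs include some with too few counts to reach the limit, which lowers both shares. The mirror rule, lower after neomycin in every pair with a mean d of -0.25 or less, was met by 872 IDs in microglia, 242 in cord and 28 in both. The same rule applied to vancomycin gave 270, 143 and 1 IDs on the higher side, and 399, 169 and 10 on the lower side. Of the 20705 IDs, 4.2% met the microglia part and 1.16% the cord part of the mirror rule. For vancomycin these shares were 1.3 and 0.681% on the higher side, and 1.92 and 0.802% on the lower side.

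Each pair of libraries was also left out in turn, the genes were chosen by the other 6 pairs, and the pair left out was read. That pair takes no part in the choice and shares no library with it. Whether it shares animals with the same-numbered pair of the other tissue is not given by the labels, so it may not be independent. The lists so chosen differ from the list described above, and they were read in the same set of NEO and PBS libraries, not in new samples. Of 98 genes chosen without microglia pair 1, 68 were higher after neomycin in pair 1, which is 69.4% against 42.4% of the 11847 IDs with at least 1 CPM in microglia. For pair 2 it was 58 of 67 genes (86.6% against 52%), for pair 3 it was 63 of 74 (85.1% against 42%) and for pair 5 it was 63 of 72 (87.5% against 47.8%).

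In cord the counts were 64 of 72 for pair 1 (88.9% against 49.3% of 13625 IDs), 59 of 81 for pair 2 (72.8% against 51%) and 68 of 77 for pair 3 (88.3% against 41.5%). The median d in the pair left out ran from 0.19 for microglia pair 1 to 0.69 for microglia pair 2, while that of all IDs lay between -0.04 and 0.03 in the 7 pairs. The 7 lists share most of their genes, so they are not 7 independent readings. Microglia pair 1 and cord pair 2 gave the lowest shares.

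Vancomycin gives a readout of the 64 genes that the rule did not use, although the PBS libraries it is compared with were used, which tilts VANCO minus PBS upward for genes chosen for low PBS values. The median vancomycin d was 0.13 in microglia (quartiles 0.05 and 0.21, range -0.28 to 0.93) and 0.03 in cord (quartiles -0.05 and 0.13, range -0.25 to 0.43). Over all IDs with at least 1 CPM it was 0.01 in microglia and 0.00 in cord. A vancomycin d of 0.25 or more was found for 13 of the 64 genes in microglia (20.3%, against 3.11% of the IDs with at least 1 CPM) and for 4 in cord (6.25%, against 0.917%). One of -0.25 or less was found for 1 gene in each tissue (1.56%, against 3.79% of the IDs in microglia and 1.2% in cord).

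**Figure D3:**
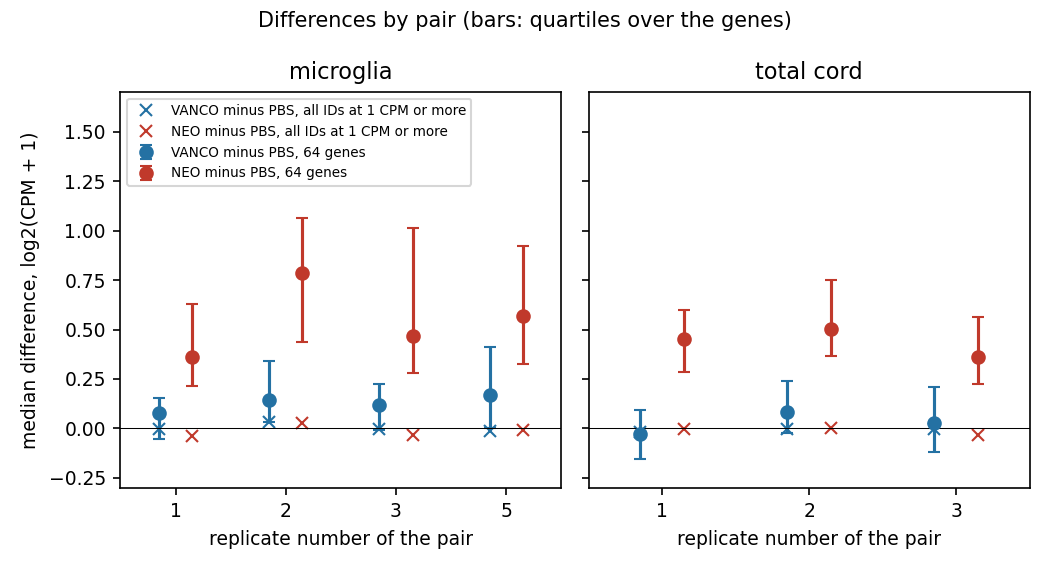
Median difference from PBS over the 64 genes in each replicate pair, as log2(CPM + 1), for VANCO (blue) and NEO (red) in microglia (left) and total cord (right); bars are quartiles over the genes, and crosses are medians over all IDs with at least 1 CPM. The NEO medians lie between 0.36 and 0.78, as chosen, and the VANCO medians between -0.03 and 0.17.

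Tested with edgeR's quasi-likelihood test over all genes, no gene passed for vancomycin against PBS: 0 of the 61 tested in microglia and 0 of 64 in cord had an adjusted p under 0.05. The share of all genes called was 0% of 12570 and 0% of 14677. At an unadjusted p under 0.05, 3 of the 61 genes passed in microglia, all higher, against 0.859% of all genes, and 3 of the 64 in cord, also all higher, against 0.845%. DESeq2 called 0 of the 61 genes in microglia (0.0398% of all genes) and 0 of the 64 in cord (0%), and limma-voom called 0 in both. A replicate block in edgeR gave 0 in microglia (0%) and 0 in cord (0.00681%), with 6 microglia genes at an unadjusted p under 0.05 (2.9% of all genes), all higher, and 9 cord genes (2.95%), of which 8 were higher and 1 lower. The remaining 3 genes failed the filter on low counts in microglia. A gene could pass that filter through its NEO libraries alone. In a fit of the PBS and VANCO cord libraries only, 61 of the 64 genes passed it, and 0 were called (0 of 14445 genes). Such a fit was not run in microglia.

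Every VANCO library lay above every PBS library for 3 of the 64 genes in microglia (0.54% of IDs with at least 1 CPM) and for 3 in cord (1.56%). The reverse order was found for 0 genes in microglia (0.439%) and 2 in cord (2.41%). The largest vancomycin d, 0.93 ± 0.87 (SD, n = 4 pairs), belonged to a microglia gene whose 4 pairs gave 0.36, 2.06, 1.13 and 0.16. Its lowest, median and highest libraries had 19.4, 71.9 and 142 CPM in PBS, 63.9, 133 and 191 CPM in VANCO and 78.2, 181 and 306 CPM in NEO, so the 3 groups overlapped.

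On the line from the PBS mean to the NEO mean of log2(CPM + 1), the VANCO mean sat at a median of 0.27 of the way in microglia (quartiles 0.06 and 0.45) and 0.08 in cord (quartiles -0.11 and 0.30). It was nearer to PBS than to NEO for 53 of the 64 genes in microglia and for 56 in cord, and it lay below PBS for 8 and 24. On this scale the NEO mean was reached by 0 genes in microglia and by 1 in cord. Both ends of the line were selected by the rule, so these positions are descriptions.

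**Figure D4:**
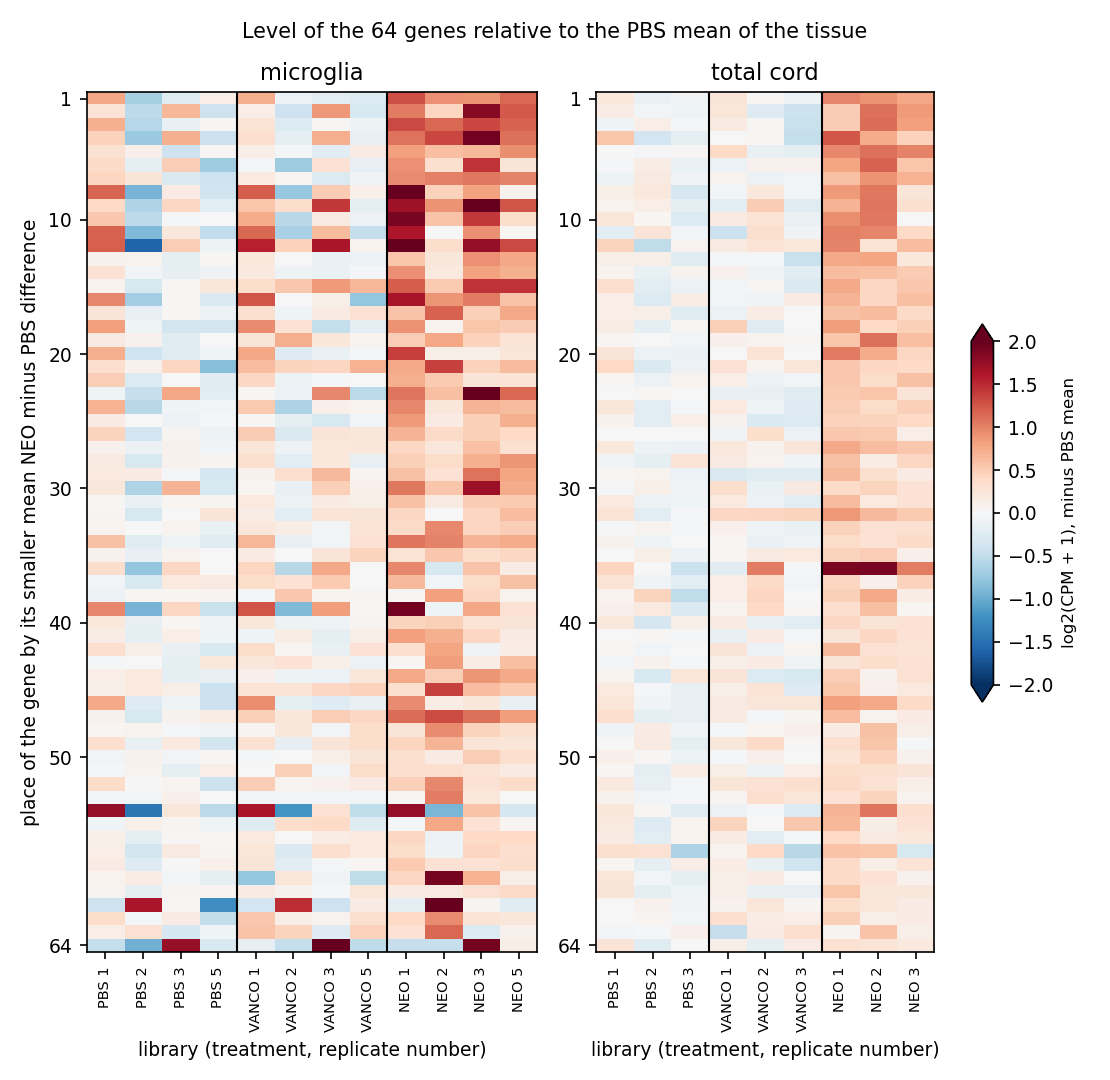
Level of each of the 64 genes (rows, in the order of their smaller mean NEO minus PBS difference) in each library (columns) relative to the PBS mean of the tissue, as log2(CPM + 1), with the colour scale ending at 2 in either direction. The median over the rows runs from 0.30 to 0.66 in the NEO columns and from -0.07 to 0.26 in the VANCO columns.

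Neomycin was compared directly with vancomycin by the same test. The NEO libraries chose the genes, which tilts this contrast upward, and nothing about the genes is read from its calls. Without the block edgeR called 0 of 61 genes in microglia (0% of all genes) and 0 of 64 in cord (0%). At an unadjusted p under 0.05, 30 genes passed in microglia and 41 in cord, all higher after neomycin, against 2.14% and 2.26% of all genes. limma-voom called 0 in either tissue, and DESeq2 called 8 in microglia and 10 in cord, where 0.119% and 0.164% of all genes were called higher. Every NEO library lay above every VANCO library for 18 genes in microglia (0.667% of IDs with at least 1 CPM) and for 37 in cord (3.24%).

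With the replicate number as a block, edgeR called 11 of the 61 genes in microglia and 25 of the 64 in cord, all higher after neomycin, where 0.159% and 0.388% of all genes were called higher. The log2 fold changes of these calls spanned 0.62 to 1.84 in microglia, and 0.41 to 1.40 in cord. The NEO libraries chose the genes, so the rule tilts these counts and their direction too, and nothing is read from them. Without the libraries of number 2 the blocked count in microglia was 15 of 60, where 44 of 12633 genes were called higher.

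The tissue in which the genes are mainly expressed was read in a contrast of the vancomycin-treated rats, whose libraries took no part in the rule. The fit behind it drew its filter, scaling and spread from all 21 libraries, those that chose the genes included. The rule also bears on the contrast, because a gene with almost no counts in a tissue can hardly reach the limit on the mean d there. Of the 3528 cord-enriched genes, 883 had at least 1 CPM in microglia. Of 1304 genes set apart likewise for microglia, 766 had at least 1 CPM in cord. All tested genes stay in the background, so the contrasts with it are partly set by the rule and are descriptions. Of the 64 genes, edgeR called 55 (84.1% of all genes were called), of which 48 were higher in microglia than in total cord (75%, against 45% of all 15546 genes) and 7 were higher in cord (10.9%, against 39.2%). The median log2 ratio of microglia to cord was 1.99, against 0.21 over all genes tested. It was also 1.99 with the gene that had no count in any VANCO microglia library placed at its bound (3 counts over the group). That gene had 8.83 ± 0.918 CPM (SD, n = 3) in VANCO cord and was at least 194-fold lower in microglia. At least 8-fold higher values in microglia were found for 16 of the genes (8.57% of all genes) and in cord for 3 (22.7%).

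Scaling shifts this comparison. With RLE factors the median of all genes moved by -0.50 on the log2 scale, and the split became 40 higher in microglia (62.5%, against 33.4% of all genes) and 13 higher in cord (20.3%, against 47.6%). The median of the 64 genes was then 1.49, and that of all genes -0.29. DESeq2 gave 41 and 12 (33.6% and 45.3% of all genes), and the replicate block 49 and 11 (47.3% and 41.5%). Without the libraries of number 2 in microglia it was 43 and 10 (39.2% and 45.2% of all genes).

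**Figure D5:**
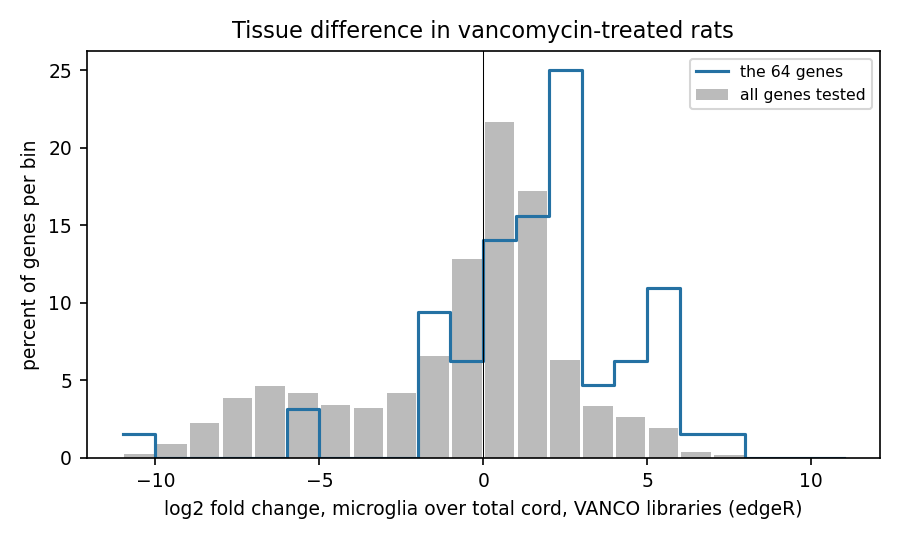
Distribution of the log2 fold change of microglia over total cord in the VANCO libraries, as the percent of genes per bin of width 1, for all 15546 genes tested (grey bars) and the 64 genes (blue line). The 64 genes have a median of 1.99, and 48 of them were higher in microglia by the edgeR test.

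The 48 genes higher in microglia had a median level of 67.2 CPM in VANCO microglia and 6.70 CPM in VANCO cord. Their median neomycin d was 0.54 in microglia and 0.42 in cord, and their median vancomycin d 0.14 and 0.03. The 7 genes higher in cord had median levels of 1.32 CPM in microglia and 6.96 CPM in cord, with a median neomycin d of 0.50 and 0.46 and a median vancomycin d of -0.03 and 0.07. In order of place, they stood at 0.32, 1.00, 0.77, 0.82, 0.84, 1.02 and 1.91 above the PBS mean in NEO microglia replicate 2. In the highest of NEO replicates 1, 3 and 5 the values were 1.44, 1.06, 0.50, 0.41, 0.60, 0.21 and 0.70. NEO replicate 2 is the library with the 4.59% share of cord-enriched genes, whose part in d was not tested. The 9 genes called in neither direction had a median neomycin d of 0.52 and 0.37.

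Total cord contains microglia, and in bulk samples more cells of a type and more RNA of a gene per cell cannot be told apart. The 1304 genes with an adjusted p under 0.05 in the edgeR test and at least 8-fold higher values in microglia, with the 64 left out, made up 1.47, 1.46 and 1.33% of the counts of NEO cord replicates 1, 2 and 3. They made up 1.42, 1.38 and 1.34% in PBS and 1.41, 1.36 and 1.31% in VANCO. The VANCO libraries themselves set these genes apart as low in cord, which may tilt the VANCO shares downward. The groups overlapped, and the median neomycin d in cord of the 766 of these genes with at least 1 CPM there was 0.01.

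In microglia the share of the cord-enriched genes was higher in NEO replicate 2 than in PBS replicate 2, at 4.59 against 1.17%. In the other 3 pairs it was lower after neomycin. It was 0.481 against 0.642% for number 1, 0.604 against 0.712% for number 3 and 0.565 against 0.652% for number 5. The part of these shares in the d of the 64 genes was not tested. The mean d over the 4 pairs had a median of 0.17 for the 883 cord-enriched genes with at least 1 CPM in microglia. When the rule was applied without number 2 in microglia it was met by 67 genes, 56 of them among the 64. The other 8 of the 64 then fell short of a mean d of 0.25.

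Within a treatment the 64 genes also varied with the replicate number. Relative to the mean of its own group, the median of the 64 genes in microglia was 0.20, -0.18, 0.03 and -0.09 in PBS replicates 1, 2, 3 and 5. It was 0.12, -0.14, 0.03 and -0.01 in VANCO and 0.04, -0.15, 0.02 and -0.12 in NEO. Replicate 1 was thus the highest and replicate 2 the lowest in all 3 groups.

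In cord the same medians were 0.10, -0.05 and -0.07 in PBS replicates 1, 2 and 3, 0.06, 0.01 and -0.08 in VANCO and 0.10, 0.02 and -0.10 in NEO, again highest in replicate 1 of each group and lowest in replicate 3. The highest VANCO library in microglia was replicate 1 for 31 of the 64 genes, replicate 2 for 7, replicate 3 for 16 and replicate 5 for 10. Among the IDs with at least 1 CPM the shares were 24.4, 23.8, 22.1 and 29.7%. In cord it was replicate 1 for 26 genes, replicate 2 for 25 and replicate 3 for 13, against 48.1, 33.9 and 18% of the IDs. The highest PBS and highest VANCO library had the same number for 39 genes in microglia (60.9%) and 27 in cord (42.2%). Of the IDs with at least 1 CPM, 58.5% and 59.9% did so, and the microglia share of the 64 genes is thus near the background.

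Levels of the 64 genes spanned a wide range. In VANCO microglia their mean CPM had quartiles of 7.34 and 122 with a median of 34.1, and in VANCO cord quartiles of 2.38 and 15.4 with a median of 6.52. The PBS mean was under 1 CPM for 6 genes in microglia and for 8 in cord, where the pseudocount of 1 CPM compresses d. A library with a count of 0 occurred in PBS microglia for 3 genes and in VANCO microglia for 1, and in cord for none.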

How the data were processed

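RNA-seq counts per gene were deposited for 12 microglia and 9 total cord libraries. Per the submitters' processing notes, STAR 2.5.2a, featureCounts 1.5.0-p1, bcl2fastq 2.20.0.422 and build rn6 were used. Annotation release, strand setting and handling of multi-mapping reads: not given in the sources used here. Overlapping or near-identical genes may share counts. The deposited values are raw counts.

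CPM used the library's total count, and d a pseudocount of 1 CPM. Tests used edgeR 4.0.16 in R 4.3.3: TMM scaling, filterByExpr, the robust quasi-likelihood test over all genes and all groups of a tissue (all 21 libraries for microglia against cord), and Benjamini-Hochberg adjustment with a threshold of 0.05. The code was tested on simulated data. The genes and lists were chosen with earlier results of these data known. The genes named are the 2 with the largest smaller mean d, since the IDs could not be matched to symbols here.

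Samples were grouped by their labels. Deviations from the group means correlated at 0.25 to 0.794 between same-numbered and -0.555 to 0.342 between different-numbered microglia libraries, and at 0.355 to 0.587 and -0.485 to 0.00843 in cord. Every same-numbered pair was above 0.1, so d and the replicate block treated the numbers as pairs, although the labels do not say what a number marks. The edgeR tests without the block did not use the numbers. Alternatives were DESeq2 1.42.0, limma-voom (limma 3.58.1), RLE scaling, no filter, the replicate block, and leaving out libraries. Lists of cell type markers and pathway genes were not used here, and the labelled cell types were not checked against markers.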

Additional observations from a re-analysis of the deposited data

Results flagged for a closer look

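In 22 groups of 4 microglia libraries, 4 had a library far from the other 3, where chance alone gives about 1 in 20. ENSRNOG00000037198 had 14.4 CPM in VANCO replicate 1 and 6.73 to 7.64 CPM in the other VANCO libraries. Cord-enriched genes made up 4.59% of the counts of NEO replicate 2, whereas NEO replicates 1, 3 and 5 had 0.481 to 0.604%. For PBS replicate 2 the value was 1.17%, and PBS replicates 1, 3 and 5 had 0.642 to 0.712%. Microglia-enriched genes made up 22.8% of NEO replicate 2 and 31.5 to 32.5% of NEO replicates 1, 3 and 5. The part of these shares in the differences of the 64 genes was not tested.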

How the results depend on the processing

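The rule was met by 18 genes with a limit of 0.5 and by 67 to 98 when one pair was left out, the highest number without microglia pair 1. A pseudocount of 0.5 gave 89 genes and one of 2 gave 47, and TMM-scaled CPM gave 70, with 62 of the 64 kept. For NEO against VANCO the count of the 64 genes called in microglia was 0, and it was 11 with the replicate block, 8 with DESeq2 and 15 without number 2 in microglia with the replicate block, an alternative chosen after seeing the data. In cord it was 0, and it was 25 with the replicate block, 10 with DESeq2 and 7 with no filter (12 of 22327 genes were called higher). It was 0 to 1 when one library was left out, the 1 without VANCO replicate 1, where 1 of 14802 genes was called. The cause of these changes was not tested. The NEO libraries chose the genes, so these counts for NEO against VANCO are tilted upward and only describe the settings. For VANCO against PBS all 15 alternatives in microglia and all 12 in cord gave 0, the replicate block included. For microglia against cord the 14 alternatives gave 51 to 60 calls, against 55. They called 12258 to 13816 of all genes, with 15491 to 25537 genes tested. Genes near 1 CPM and the 3 or 4 libraries per group limit the precision.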
